A study of Homo sapiens with 8 samples.

Results

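The 39 genes described here make and escort the moving RNA polymerase II (RNAPII) or rescue it when it stalls: polymerase subunits, elongation factors and their kinases, the PAF1 complex, the core factors of transcription-coupled repair, and factors of rescue and termination. They were taken by name from RefSeq, out of 19970 protein-coding genes on the autosomes and the X chromosome. Of these, 37 were analysed, and POLR2A and NELFE are not analysed here. For each gene the measured region was the gene body (14 members) or, where the gene was shorter, a window of 50 kb around its centre (23 members). In 21 of the windows another protein-coding gene lies in the same region. Another also overlaps the gene bodies of POLR2B, CDC73, ERCC6, TCEA1 and ELL2. A value thus belongs to the stretch of chromosome and not to the gene alone. The windows of PAF1 and SUPT5H lie 22.76 kb apart and are not independent places.

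CFAP20-KO cells (KO) and wild-type cells (WT) of the RPE-1 hTERT line, an immortalised human retinal pigment epithelial line, were compared without any agent other than 1 pulse of 15 min with 10 µM EdU, which replicating cells take up in place of thymidine. The labels do not say whether KO is 1 clone or how the deletion was made. In single-cell EdU sequencing the labelled fragments of each sorted cell are sequenced, so each fragment, called a molecule here, marks a place that the cell was copying during the pulse. Each of 8 plates held both genotypes, which gives 8 KO and 8 WT libraries of summed cells, and nothing in the labels says that plates came from separate cultures, so the p-values below measure the spread between plates. The files hold DNA only, so neither the expression of these genes nor the cell type can be read from them.

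RNAPII carries the transcript-making machinery through the gene, with SPT5 and SPT4, the PAF1 complex and SPT6 riding on it, and with NELF and the kinase P-TEFb governing release from the pause near the promoter. At a lesion that blocks RNAPII, CSB (ERCC6) binds first, CSA (ERCC8) brings a ubiquitin ligase, and UVSSA and ELOF1 help to load the repair factors. A replication fork copies the same template, in the same direction as RNAPII or head-on to it, and gene-rich transcribed stretches are in general copied early in S phase.

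After the removal of cells with fewer than 1000 autosomal molecules, 1140 KO and 1290 WT cells were kept. KO libraries held 854235 to 1478166 molecules from 129 to 162 cells, and WT libraries 800235 to 2643651 molecules from 132 to 190 cells. KO cells had 8232 ± 1834 molecules each and WT cells 11051 ± 2709 (SD, n = 8 plates), lower in KO in 8 of 8 plates (exact two-sided sign-flip test, p = 0.00781, the smallest that 8 plates allow). All 39 regions together held 5474 molecules in KO and 8903 in WT. The 37 analysed held 88 to 1371 each, with a median of 325. The molecules of an analysed region came from 26 to 201 KO cells and 29 to 281 WT cells. In KO the region of CFAP20, the targeted gene, had 1.00 ± 0.68 times the molecules per kb of the median gene region. In WT it had 1.10 ± 0.38 times. Its share of a library's molecules differed by -0.48 ± 0.94 log2 units, KO over WT (SD, n = 8 plates, exact sign-flip test, p = 0.188). A small edit would leave such a value as it is, so it does not check the labels.

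Cells were placed in an S-phase order from 0 (early) to 1 (late) by their pattern of molecules over the genome. The gene-rich end was taken as early. The timing of a region is the mean over its molecules, each with the position of its cell. Cells with more molecules in a region thus weigh more. With equal weight for every cell the medians given below were 0.323 for the members and 0.354 for all gene regions. The members were copied early. In the 32 members with at least 10 molecules in every plate, both genotypes together, the median timing was 0.219 ± 0.035, against 0.252 ± 0.038 for all 16843 gene regions measured (SD over 8 plates). The members' median was the earlier one in 8 of 8 plates, by 0.0327 ± 0.0119. Of the 32, 24 were earlier than the median gene region (0.234), 10 were earlier than the first quartile of gene regions (0.197) and 1 was later than the last (0.433). POLR2E, POLR2H, NELFB, CDK9 and RECQL5 had too few molecules in some plate.

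**Figure D1:**
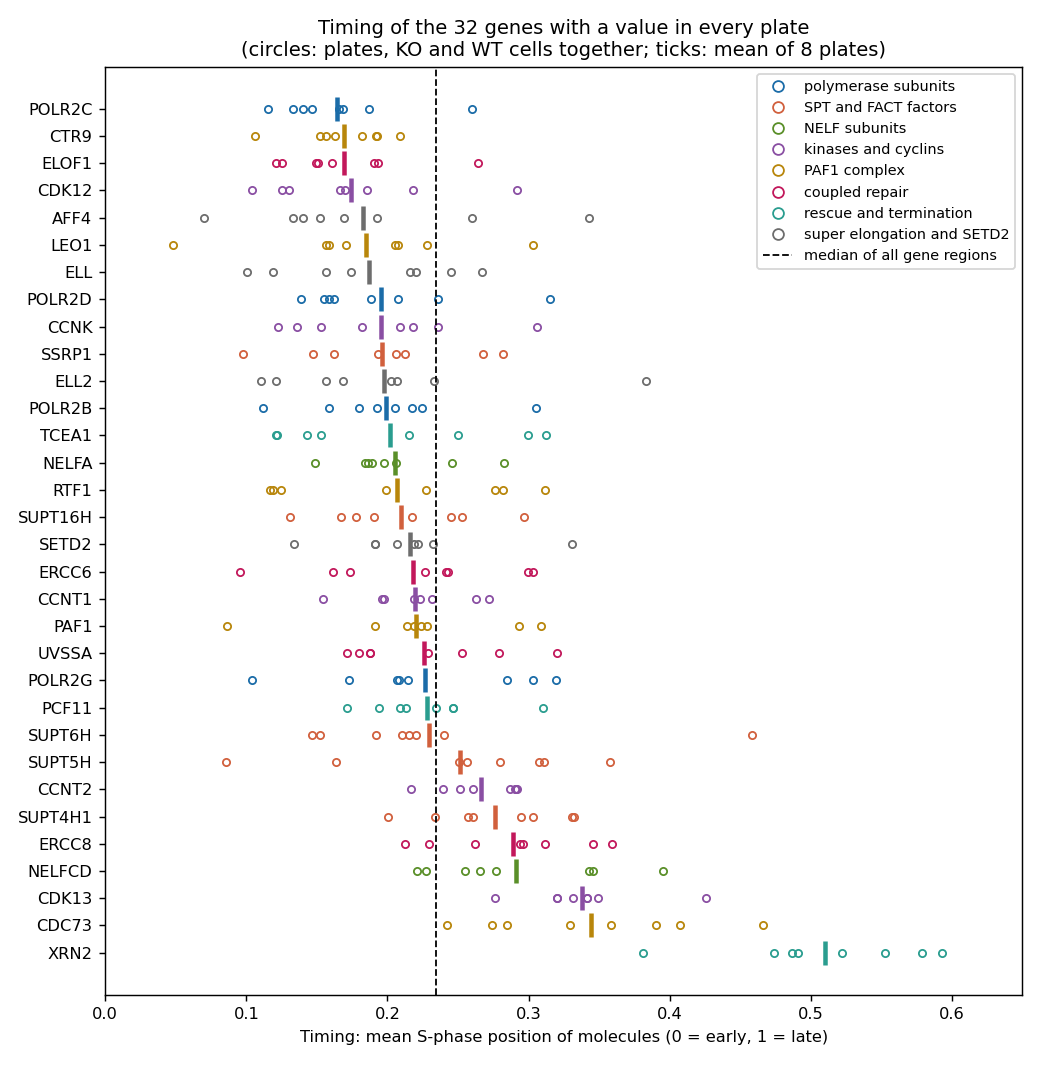
Timing of each member with a value in every plate, as position in the S-phase order (0 early, 1 late), sorted by mean, with 1 circle per plate (both genotypes together), a tick at the mean of 8 plates, and colours for the roles. The dashed line is the median gene region at 0.234; XRN2 at 0.510 stands well to the late side.

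Over both genotypes together, the 2 earliest regions belonged to POLR2C and CTR9. POLR2C, a core subunit that joins POLR2A and POLR2B in the enzyme (chromosome 16, 57462679 to 57472009, plus strand), had a timing of 0.164 ± 0.045, earlier than all but 3.66% of gene regions. CTR9, the scaffold of the PAF1 complex (chromosome 11, 10751246 to 10779746, plus strand), had 0.169 ± 0.032. ELOF1, a small elongation factor bound near the front of RNAPII (chromosome 19, 11553046 to 11559230, minus strand), had 0.169 ± 0.047. These early neighbours differ by less than their spread over plates. By genotype, POLR2C had 0.250 ± 0.170 in KO and 0.143 ± 0.057 in WT, and CTR9 0.177 ± 0.057 and 0.164 ± 0.039. The ranking also depended on the cells kept. With cells of at least 5000 molecules POLR2C had too few molecules in some plate. ELL (percentile 3.28) and ELL2 (5.73) were then the earliest members measured, and CTR9 lay at 11.3.

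The latest region was XRN2, the nuclear exonuclease that chases RNAPII at termination (chromosome 20, 21303331 to 21389825, plus strand), at 0.510 ± 0.068, later than 79.8% of gene regions and with plates between 0.381 and 0.593. CDC73, the PAF1-complex subunit known as parafibromin (chromosome 1, 193122031 to 193254815), followed at 0.344 ± 0.076. CDK13, one of the kinases that partner with cyclin K to phosphorylate the RNAPII tail (chromosome 7, 39950256 to 40099580, plus strand), had 0.338 ± 0.042. XRN2 stood apart from both by more than its spread, while CDC73 and CDK13 did not differ beyond theirs. The first 100 kb beyond the end of XRN2 were the earliest point of its surroundings, at 0.402 ± 0.109 in KO and 0.414 ± 0.099 in WT, and by 200 to 300 kb the timing was 0.736 in KO and 0.780 in WT.

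By role, the median timing was 0.197 for 4 polymerase subunits and 0.192 for 4 members of the super elongation complex and its neighbour in the list, the histone methyltransferase SETD2. It was 0.207 for the PAF1 complex (5 members) and 0.219 for 5 kinases and cyclins. The 4 core repair factors had a median of 0.222, the 5 SPT and FACT factors, which carry histones past RNAPII or pair with it, 0.229, and the rescue and termination factors 0.228 (3 members). NELF was measured in only 2 subunits, at 0.248. Members of 1 role could lie far apart. The repair factors alone ran from 0.169 in ELOF1 over 0.218 ± 0.071 in ERCC6 and 0.226 ± 0.054 in UVSSA to 0.289 ± 0.052 in ERCC8. These values are over both genotypes together, and their order differed by genotype. ELOF1 was the earliest of the 4 in WT (0.160 ± 0.089) but the latest in KO (0.318 ± 0.203). Its smallest library held 1 molecule. In KO UVSSA had 0.229, ERCC6 0.265 and ERCC8 0.277.

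The share of molecules that came from the early tercile of the ordered cells shows the same early character. Over 35 members its median was 74.1% ± 7.91 in KO and 79.2% ± 5.48 in WT, against 65.4% in KO and 74.3% in WT for all 17274 gene regions. It was lower in KO for 26 of the 35 members, 74.3% of them. The same was true of 73.8% of all gene regions. With windows of 200 kb it was lower in KO for 33 of 37 members (89.2%), beside 78.3% of all gene regions, and the difference between these shares was not tested. Over whole libraries the early tercile of cells held 34.5% of molecules in KO and 39.2% in WT. XRN2 again stood apart, with 27.0% early in KO and 37.7% in WT. The shares depend on the minimum of molecules per cell. The middle tercile held 15.4% of molecules in KO and 14.3% in WT, but 37.0% and 36.8% with cells of at least 5000 molecules. With those cells XRN2 had 14.0% early in KO and 21.1% in WT. The members' median was then 73.3% in KO and 81.5% in WT, against 57.9% and 66.1% for all gene regions.

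**Figure D2:**
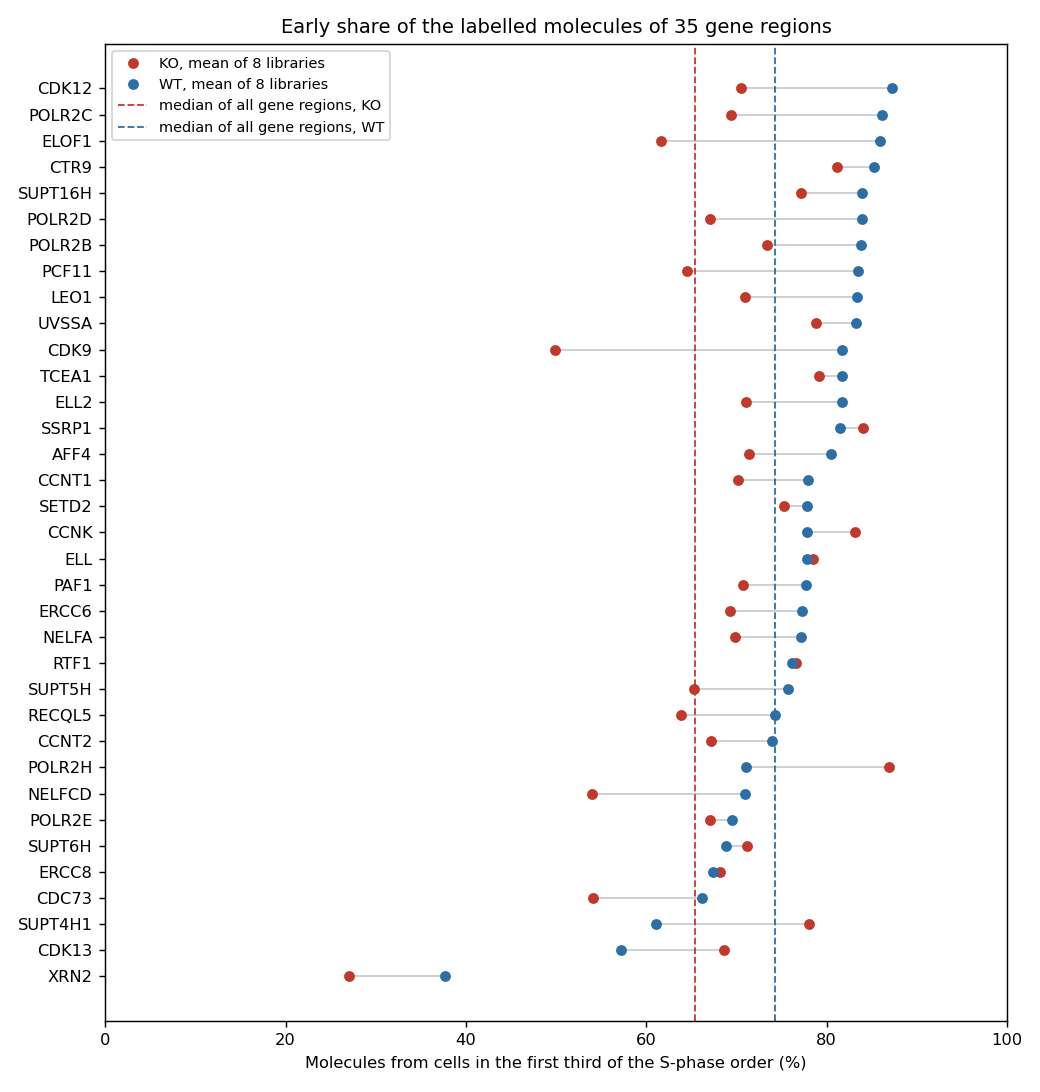
Share of each member's molecules (percent) that came from the early tercile of the ordered cells, KO and WT, as means over 8 plates, with members sorted by WT. Dashed lines give the medians of all gene regions, 65.4% in KO and 74.3% in WT; KO is the lower one in 26 of 35 members, and XRN2 lies at 27.0% in KO and 37.7% in WT.

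The question that the comparison of genotypes addresses is whether loss of CFAP20 changes the copying of these genes. Molecules per region, scaled to the total of each library, were compared for the 35 members with a mean of at least 10 molecules per library, which leaves out POLR2G and NELFB. No member passed the adjusted p of 0.05 (limma voom, Benjamini-Hochberg over all gene regions), where 1.02% of 17274 gene regions did, 18 higher and 159 lower in KO. With libraries scaled by the median ratio the split over all gene regions was 23 higher and 78 lower. At an unadjusted p of 0.05, 4 members passed (11.4%), beside 11.5% of all gene regions. The median log2 difference, KO over WT, was -0.12 for the members and -0.09 for all, and 12 of the 35 lay above 0.

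**Figure D3:**
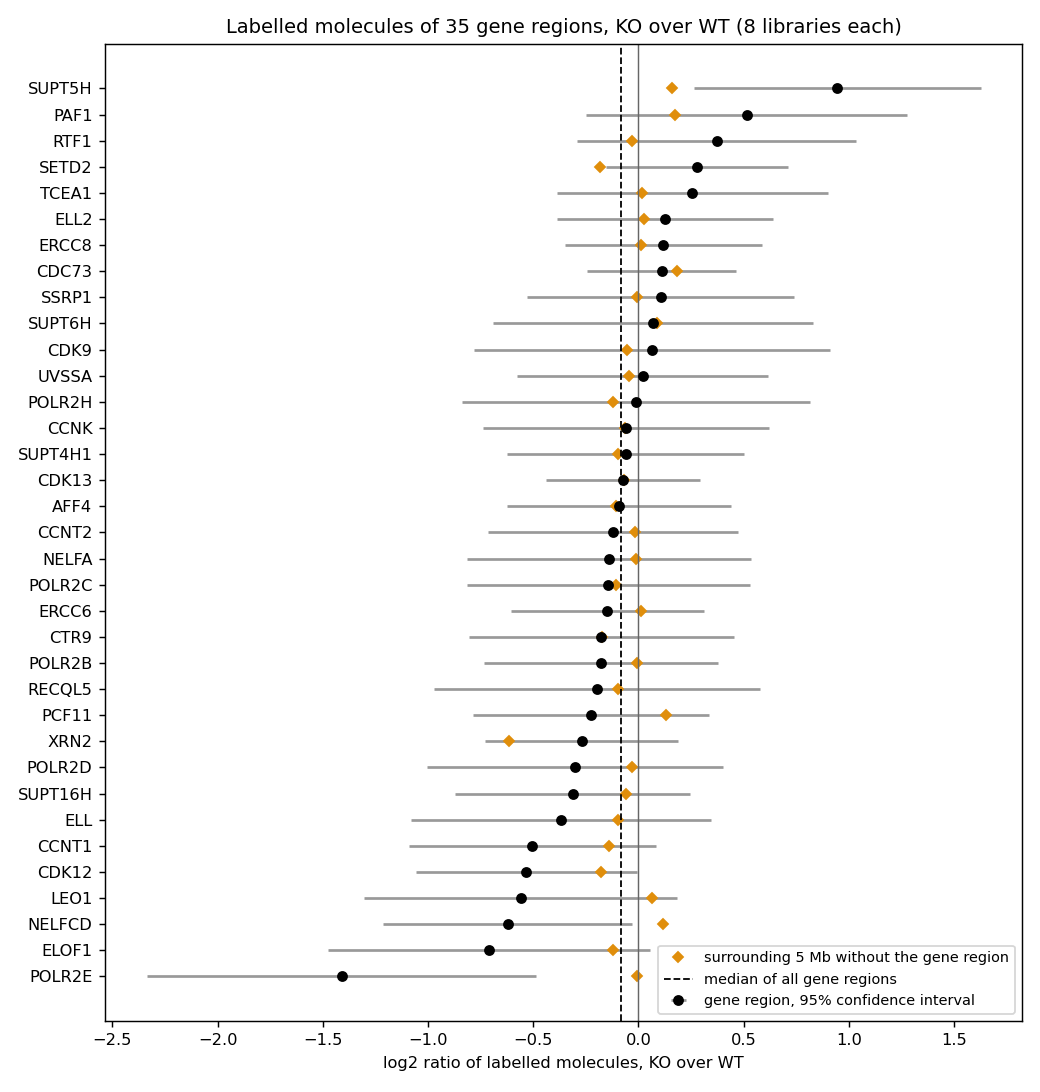
Log2 difference in molecules per region, KO over WT, for the 35 members tested, sorted by estimate, with 95% confidence intervals; diamonds give the surrounding 5 Mb without the region and the dashed line the median of all gene regions. Estimates run from -1.41 (POLR2E) to 0.95 (SUPT5H), and no member passed the adjusted p.

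SUPT5H and PAF1 had the highest estimates. SUPT5H encodes SPT5, which clamps the template in RNAPII and, with SPT4, forms DSIF (chromosome 19, 39445582 to 39476670, plus strand). Its density, in molecules per kb relative to the median gene region of a library, had a lowest, median and highest value of 0.477, 1.06 and 1.76 in KO, and 0.269, 0.440 and 1.22 in WT. KO was higher in 8 of 8 plates, but the groups overlap, and the log2 difference was 0.95 ± 0.34 (SE, adjusted p = 0.200). A median of 8.5 KO cells and 7.5 WT cells per plate carried those molecules, and with equal weight for every cell the difference was 0.03. PAF1, the subunit that names its complex (chromosome 19, 39385629 to 39391106, minus strand), gave 0.51 ± 0.38 (adjusted p = 0.667), higher in KO in 7 of 8 plates, and -0.24 with equal weight for every cell. The surrounding 5 Mb is almost the same stretch for both genes. It was itself 0.157 log2 units higher in KO around SUPT5H and 0.173 around PAF1, in 8 of 8 plates. These are not separate results, and the part of this stretch in the estimates was not tested.

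POLR2E and ELOF1 had the lowest estimates. POLR2E, a subunit that RNAPII shares with polymerases I and III (chromosome 19, 1086574 to 1095375, minus strand), had 0, 0.286 and 0.738 as lowest, median and highest density in KO, and 0.250, 0.653 and 1.06 in WT. The groups overlap, and the log2 difference was -1.41 ± 0.46 (SE, adjusted p = 0.137); it rests on 39 molecules in KO and 127 in WT. Over a window of 200 kb the value was 0.07. ELOF1 had -0.71 ± 0.38 (adjusted p = 0.481), with densities of 0.0597, 0.658 and 1.34 in KO and 0.440, 0.904 and 1.15 in WT.

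The other core repair factors had estimates nearer to 0. ERCC6, the remodelling ATPase CSB (chromosome 10, 49434881 to 49539538, minus strand), had densities of 0.717, 0.832 and 1.35 in KO and 0.665, 0.942 and 1.32 in WT, and a log2 difference of -0.15 ± 0.23 (adjusted p = 0.875). ERCC8, the WD-repeat protein CSA (chromosome 5, 60866454 to 60945070, minus strand), had 0.795, 1.48 and 2.28 in KO and 0.869, 1.25 and 1.98 in WT, and a difference of 0.12 ± 0.23 (adjusted p = 0.908). UVSSA, which brings TFIIH to stalled RNAPII (chromosome 4, 1342011 to 1395989, plus strand), had 0.497, 0.820 and 2.25 in KO and 0.662, 0.880 and 1.28 in WT, with a difference of 0.02 ± 0.30 (adjusted p = 0.993). In all 3 genes the ranges of KO and WT lie over each other.

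By role, estimates above 0 were counted in 0 of 5 polymerase subunits, 0 of 2 NELF subunits, 1 of 6 kinases and cyclins and 1 of 4 rescue and termination factors. They were counted in 3 of 5 SPT and FACT factors, 3 of 5 PAF1-complex members, 2 of 4 repair factors and 2 of 4 of ELL, ELL2, AFF4 and SETD2. None of these groups held a member past the adjusted p. The median of all gene regions also lay below 0, and differences between roles were not tested. XRN2 lies in a stretch of 5 Mb that was lower in KO by a log2 difference of -0.61 ± 0.0694 (SD), in 8 of 8 plates, while the surroundings of the other members lay between -0.183 and 0.184.

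The level of labelling itself was lower in most members than in the median gene region. The median density of the 35 members was 0.837 ± 0.0594 in KO and 0.854 ± 0.0899 in WT. Of them, 20 in KO and 23 in WT lay under the median gene region. That median also counts regions below the minimum for the test, so it lies under the median of the regions tested. POLR2B, at 1.10 over both genotypes, was at the 49.0th percentile of the regions tested. Over both genotypes together, ERCC8 (1.54 in KO, 1.30 in WT) and CDK13 (1.45 in KO, 1.45 in WT) had the most molecules per kb. By the same mean over genotypes, POLR2E (0.339 in KO, 0.619 in WT) had the fewest among the members tested. ELL, an elongation factor of the super elongation complex, came next (0.481 in KO, 0.522 in WT). In WT alone the order differed: CDK13 and XRN2 (1.43) were the highest, and PAF1 (0.451) and RTF1 (0.484) the lowest tested. Below the minimum for the test, NELFB had 0.405 in KO and 0.201 in WT, and POLR2G, a subunit of the stalk of RNAPII, 0.402 in KO and 0.463 in WT.

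To separate the gene from the stretch it lies in, molecules per kb in the region were set over those in the flanks of 250 kb on both sides. No member of 35 passed the adjusted p (limma), where 0.00579% of 17273 gene regions did, 1 in number. At an unadjusted p of 0.05 there were 3, or 8.57%, beside 5.95% of all gene regions. They were POLR2E at -1.70 on the log2 scale, LEO1, a PAF1-complex subunit, at -0.78, and SUPT5H at 0.72. Estimates above 0 were found in 21 of 35 members, with a median of 0.11, and the median of all gene regions was 0.01.

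The timing of the region itself could be compared between genotypes in 6 members only, those with at least 10 molecules in each of the 16 libraries: CDK13, ERCC8, SETD2, ERCC6, CDC73 and XRN2. CDK13 was copied earlier in KO, the 1 member of 6 past the adjusted p, where 18.1% of 6997 gene regions passed, 411 later and 853 earlier in KO, the earlier ones making 12.2% of all. Its timing had a lowest, median and highest value of 0.233, 0.285 and 0.371 in KO, and 0.258, 0.380 and 0.462 in WT. The groups overlap, with KO earlier in 7 of 8 plates. After centring each library on its median gene region the difference was -0.10 ± 0.03 (SE, adjusted p = 0.0236). Without centring it was -0.07 and did not pass, and the split over all gene regions was 736 later and 550 earlier. The call was also lost without plate 1 (adjusted p = 0.0760), plate 6 (0.0588) or plate 8 (0.0622), and over all alternatives the adjusted p was at most 0.0818. The surroundings did not move as 1 block: from 600 to 700 kb before the gene the timing was 0.385 ± 0.085 in KO and 0.545 ± 0.089 in WT, whereas from 400 to 500 kb beyond its end it was 0.593 ± 0.064 in KO and 0.417 ± 0.079 in WT.

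The other 5 did not pass. XRN2, with lowest, median and highest timing of 0.392, 0.561 and 0.715 in KO and 0.329, 0.485 and 0.604 in WT, had the highest centred difference at 0.06. CDC73 had 0.261, 0.398 and 0.476 in KO, 0.173, 0.313 and 0.487 in WT, and a difference of 0.05. ERCC8 had 0.161, 0.250 and 0.530 in KO, 0.216, 0.310 and 0.449 in WT, and a difference of -0.07 ± 0.04 (adjusted p = 0.257), which passed without plate 2 at -0.10. The ranges of KO and WT overlap in all 3. ERCC6 had a difference of 0.04 ± 0.05 (adjusted p = 0.665) and SETD2 one of -0.01. With windows of 200 kb, 36 members could be tested and 3 passed, all earlier in KO, beside 16.3% of 18429 gene regions: SUPT4H1 (-0.11), which encodes the SPT4 partner of SPT5, ERCC8 (-0.07) and CDK13 (-0.13). Over all gene regions 404 were then later and 2595 earlier, the earlier ones making 14.1%.

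The step is the timing of the flank beyond a gene's end minus that of the flank before its start, 250 kb each. Positive values mean that the flank beyond the end was copied later on average, and negative values that it was copied earlier. The step is a net order over both flanks. It does not show single forks or the direction in which the gene itself was copied. XRN2, for example, with a negative step, was itself earlier (0.510) than the flank before it (0.642) and the flank beyond it (0.567). Over both genotypes together, 15 of 33 members had a step past the adjusted p (one-sample limma over 8 plates), 8 positive and 7 negative, where 48.9% of 14879 gene regions did. Positive steps were found in PCF11 (0.21), a cleavage and termination factor, CDK13 (0.21), SSRP1 (0.18), a FACT subunit, NELFCD (0.17), CCNT1 (0.13), ERCC6 (0.10), SUPT5H (0.06) and ERCC8 (0.05). Negative steps were found in SUPT16H (-0.10), the other FACT subunit, XRN2 (-0.08), CCNT2 (-0.07), SUPT4H1 (-0.07), ELOF1 (-0.07), PAF1 (-0.06) and CCNK (-0.06). Some of these steps were near 0 in KO. ERCC6 had -0.009 in KO and 0.160 in WT, ERCC8 0.002 and 0.079, ELOF1 0.003 and -0.090, and CCNK 0.001 and -0.104. Others were present in both genotypes, such as CDK13 (0.184 and 0.218) and XRN2 (-0.070 and -0.079). The polymerase subunits had no step past the adjusted p, with steps between -0.03 and 0.02 in the 5 measured. This depended on the setting: with flanks of 500 kb POLR2B (0.09), POLR2D (-0.07) and POLR2H (0.05) passed, and with cells of at least 5000 molecules POLR2B (-0.04, the opposite sign) and POLR2H (0.07). Over all members 23 of 33 passed with flanks of 500 kb, 14 positive and 9 negative, beside 62.2% of gene regions. With cells of at least 5000 molecules 21 passed, 11 positive and 10 negative, beside 62.4%. SUPT5H and PAF1 lie on opposite strands with overlapping flanks. Their opposite signs describe the same slope along the chromosome and are not separate results.

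The step could be compared between KO and WT in 36 members, and 4 passed the adjusted p, 2 higher and 2 lower in KO, or 11.1%, where 16.4% of 18031 gene regions did (1500 higher and 1452 lower). In CDC73, TCEA1, ELL2 and POLR2G the strand was not available here and the step follows genome coordinates. UVSSA had too few molecules in a flank of some library.

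**Figure D4:**
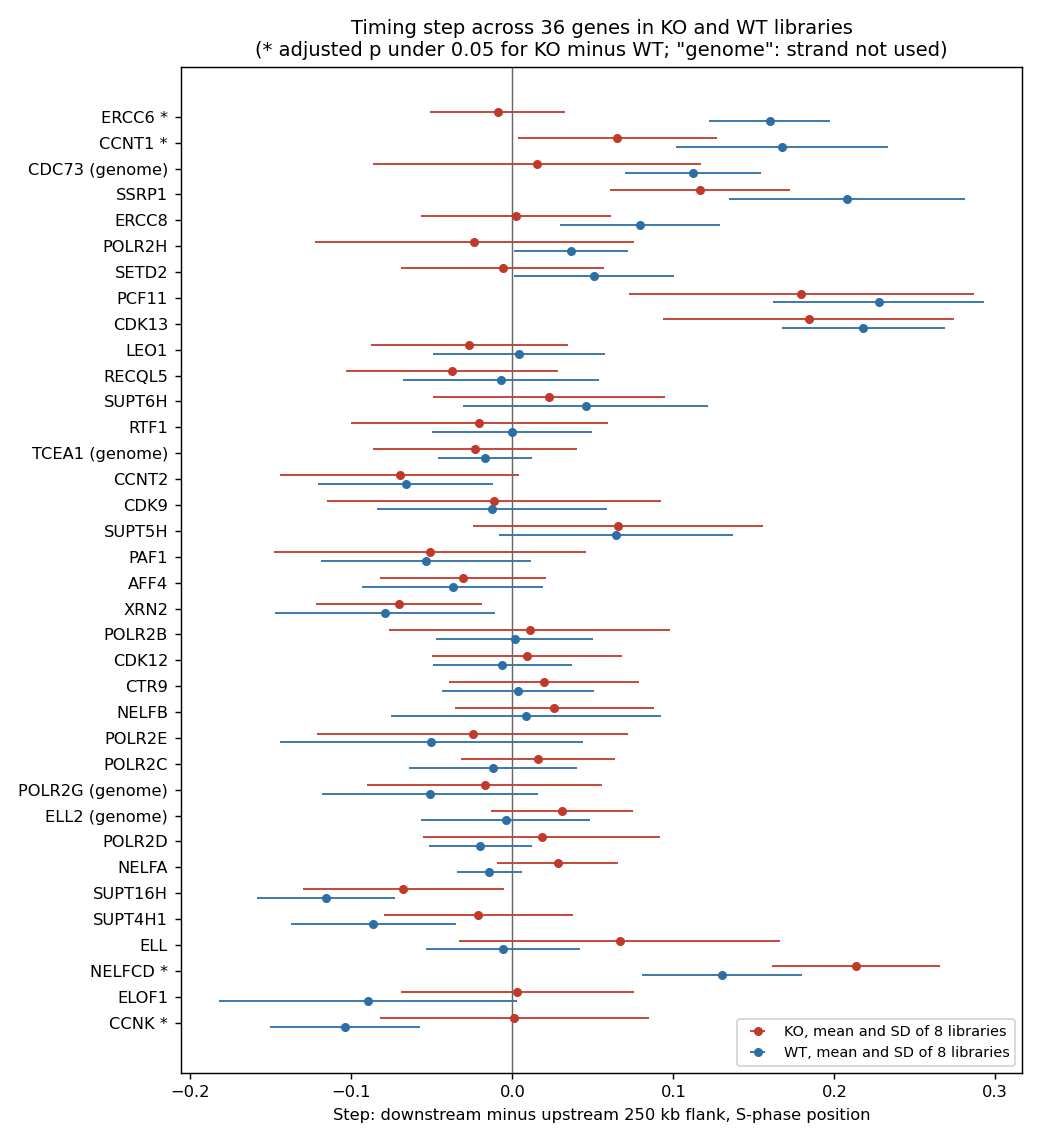
Timing step across each member (flank of 250 kb after the gene minus the flank before it, in units of position in the S-phase order) in KO and WT, mean and SD over 8 plates, sorted by the difference; a star marks an adjusted p under 0.05. ERCC6 has the widest gap, with -0.009 in KO and 0.160 in WT.

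ERCC6 had the clearest difference. Its step had a lowest, median and highest value of -0.073, -0.016 and 0.067 in KO, and 0.111, 0.159 and 0.221 in WT. The groups do not overlap, and KO was lower in 8 of 8 plates. The difference was -0.17 ± 0.03 (SE, adjusted p = 4.00e-05), and it passed in each of 13 alternative settings, with adjusted p from 1.78e-06 to 0.00439. The gene body had a timing of 0.265 ± 0.144 in KO and 0.204 ± 0.082 in WT, with no call between them. From 200 to 300 kb beyond the gene's end the timing was 0.314 ± 0.058 in KO and 0.539 ± 0.086 in WT, from 285 KO and 664 WT molecules. From 300 to 400 kb it was 0.403 in KO and 0.645 in WT. Farther out, from 600 to 700 kb, the order of the genotypes turned, with 0.632 in KO and 0.554 in WT.

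CCNT1 and CCNK, the cyclins of P-TEFb and of CDK12 and CDK13, also passed, in opposite directions. CCNT1 (chromosome 12, 48688458 to 48716707, minus strand) had steps of -0.022, 0.051 and 0.172 in KO and 0.074, 0.163 and 0.260 in WT, lower in KO in 8 of 8 plates, with a difference of -0.10 ± 0.03 (adjusted p = 0.0253). From 200 to 300 kb beyond its end the timing was 0.342 in KO and 0.545 in WT. CCNK (chromosome 14, 99481409 to 99512440, plus strand) had -0.107, -0.00449 and 0.169 in KO and -0.191, -0.0985 and -0.0366 in WT, higher in KO in 8 of 8 plates, with a difference of 0.11 ± 0.03 (adjusted p = 0.0250). From 200 to 300 kb before its start the timing was 0.356 in KO and 0.540 in WT. In both genes the ranges of KO and WT overlap, and in both the later flank had the lower mean timing in KO. The call was lost for CCNT1 without plate 1, 4, 5 or 6 (adjusted p of 0.0513, 0.0849, 0.0576 and 0.0730) and for CCNK without plate 6 or 8 (0.104 and 0.0652).

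NELFCD, a subunit of the pausing factor NELF (chromosome 20, 58981256 to 58995113, plus strand), had steps of 0.151, 0.206 and 0.319 in KO and 0.0747, 0.118 and 0.212 in WT, higher in KO in 7 of 8 plates. The groups overlap, and the difference of 0.08 ± 0.03 only just passed (adjusted p = 0.0454). With plate as a block it did not (adjusted p = 0.0568), nor without plate 1, 2, 3, 4, 5 or 7 (adjusted p from 0.0507 to 0.128). From 200 to 300 kb beyond its end the timing was 0.703 in KO and 0.647 in WT. SSRP1 lay just outside the threshold at -0.09 (adjusted p = 0.0512) and passed with plate as a block (0.0314). ERCC8 (-0.08, adjusted p = 0.0769) and ELOF1 (0.09, adjusted p = 0.0911) did not pass.

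**Figure D5:**
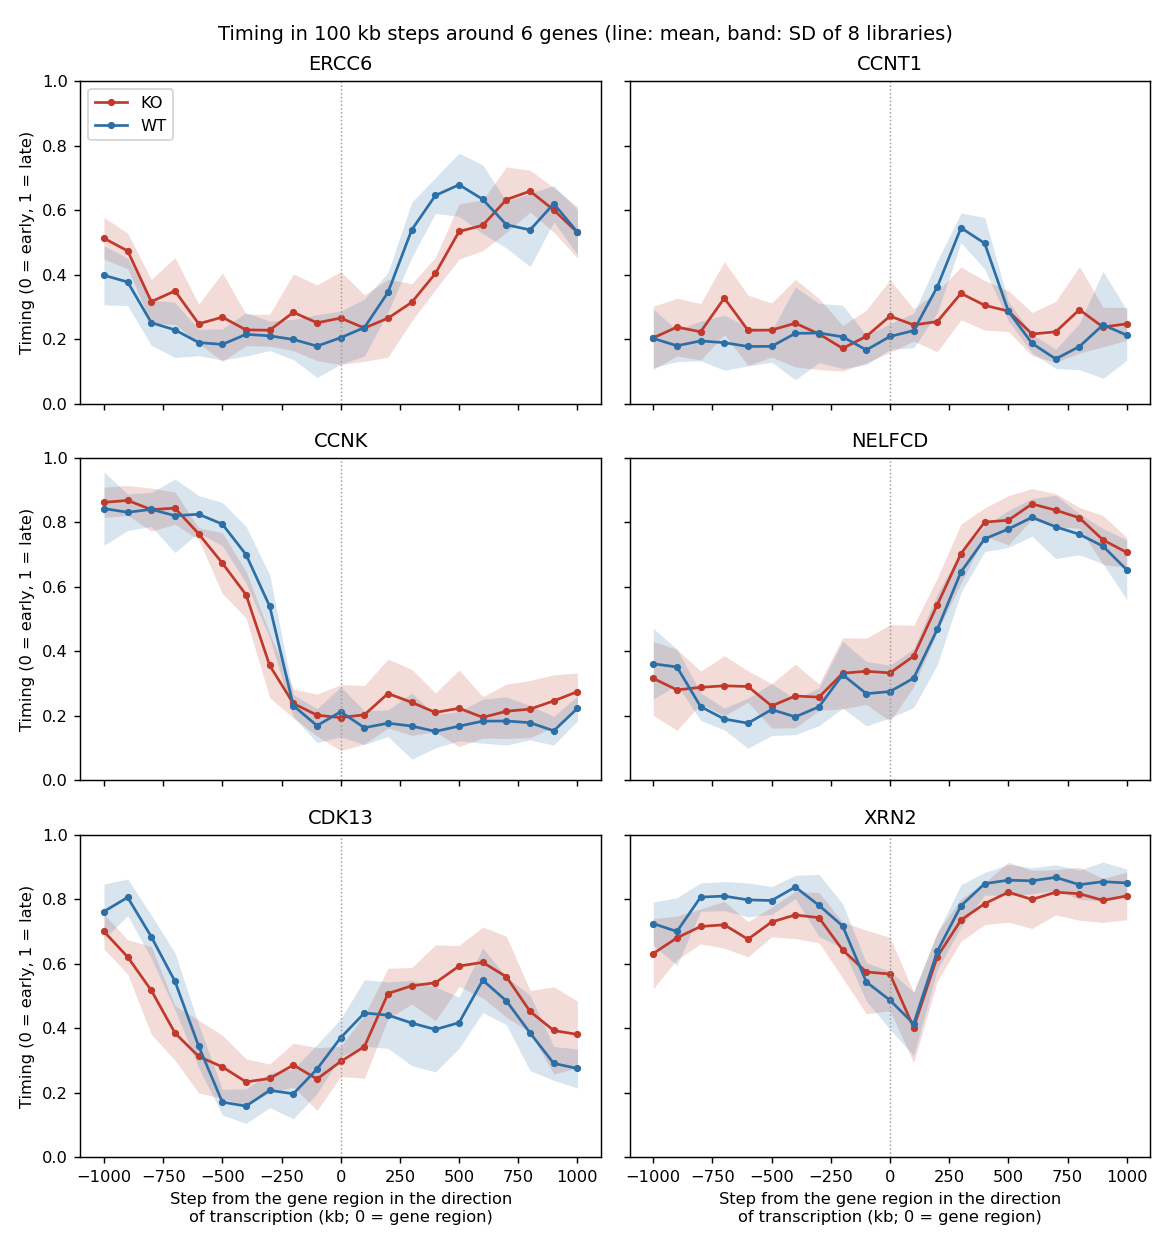
Timing in KO and WT in steps of 100 kb up to 1000 kb before and beyond ERCC6, CCNT1, CCNK, NELFCD, CDK13 and XRN2, in the direction of transcription, with lines for the mean and bands for the SD over 8 plates. The KO and WT curves part on the later side of ERCC6, CCNT1 and CCNK, where 200 to 300 kb from the gene KO lies at 0.314 to 0.356 and WT at 0.539 to 0.545.

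The step depends on how far the flanks reach. With flanks of 500 kb, 14 of 37 members passed, 37.8% of them, 7 higher and 7 lower in KO, beside 27.9% of gene regions, so that the members' share lay above that of all gene regions there and below it with flanks of 250 kb. Among the 14 were ERCC6 (-0.20), ELOF1 (0.19), CCNK (0.16), SSRP1 (-0.15) and ERCC8 (-0.10). With cells of at least 5000 molecules, 5 of 31 passed (ERCC6, CCNT1, CCNK, NELFCD and CDC73), beside 17.2% of gene regions.

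Of 72 other genes of RNAPII elongation, termination and nucleotide excision repair, taken from a list chosen with earlier results of these data known, none of 58 tested differed in molecules or in the ratio to the flanks by the adjusted p. With windows of 200 kb, CUL4B, a ubiquitin ligase scaffold, had fewer molecules in KO (-0.72 on the log2 scale, adjusted p = 0.00341), the 1 of 69 that passed. Among all 18970 gene regions measured with these windows, 53 passed as higher and 665 as lower in KO. In timing 5 of 23 passed. INTS10, an Integrator subunit, was earlier in KO (-0.21), as was EAF2, a partner of ELL (-0.14). MLLT1 and AFF1, of the super elongation complexes, were later (0.11 and 0.12), as was CUL4B (0.14), whose call was lost with plate as a block (adjusted p = 0.0653). With equal weight for every cell none of the 3 later calls held. In the step 7 of 64 passed: EAF2 (-0.22), the lesion sensor XPC (-0.16), POLR2M (-0.14), the repair nuclease ERCC5 (-0.13) and MLLT3 (-0.12, not called with cells of at least 5000 molecules) were lower in KO, and the repair nuclease ERCC4 (0.11) and CCNH, the cyclin of the TFIIH kinase (0.22), were higher. These counts, too, stand beside 18.1% for timing and 16.4% for the step over all gene regions.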

How the data were processed

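Molecules labelled by EdU were located in single KO and WT cells of 8 plates. The deposited files list every fragment with its cell, position, signed length and genotype; these other values are positions and labels with no count or scaling, per the file headers. Genotype came from that column, because the field for it in the labels says CFAP20-KO on all plates. Coordinates are on GRCh38, as the submitters' processing notes state, and how reads were aligned and duplicates removed is not given in the sources used. The plates held 1746074 to 4181841 fragments, and 6.35% to 8.81% shared cell, position and direction with another.

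Cells with at least 1000 autosomal molecules were ranked on axis 1 (18.8% of the variation) of a correspondence analysis over bins of 500 kb, the gene-rich end being early, and divided into terciles. Molecules were summed per gene region, plate and genotype. Because the files hold positions, limma voom (limma 3.58.1, R 4.3.3) was used for molecules and limma for timing, flank ratio (pseudocount 0.5 molecule) and step, over all gene regions that passed the stated minimum, with Benjamini-Hochberg adjustment. Confidence intervals are at 95%. Fragments at a shared position may not be independent molecules.

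Titles give both genotypes of a plate the same number, so plate pairs them. The deviations of a plate's libraries correlated by 0.0457 on average (-0.0313 to 0.140). The main limma fits between KO and WT left plate out, and plate as a block was an alternative setting. The sign-flip tests used the pairs. No plates held the same data (chi-squared per degree of freedom 2.73 to 5.70 over 28 pairs). Each fit was tested on simulated data and recovered 48.5% of 200 regions changed by 1 log2 unit in molecules, 41.0% in the flank ratio, 21.5% of those moved by 0.1 in timing and 8.50% in the step. In the data far more regions passed in timing (18.1% of 6997) and in the step (16.4% of 18031) than were changed in the simulation. The adjustment was therefore stricter in the simulation. Its shares for timing and the step do not give the recovery of the fits reported here.

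Members and lists were chosen with earlier results of these data known. Values are given in full for members past an adjusted p, the 2 earliest and latest, the 2 with most and fewest molecules per kb, the 2 highest and lowest estimates, and the core repair factors. The level of the step was added after the data were seen. Other settings tried were cell minimums of 300 and 5000, plate as a block, each plate left out, windows of 200 kb, flanks of 500 kb, other scalings, filters and weights.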

Additional observations from a re-analysis of the deposited data

Results flagged for a closer look

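In 102 groups of 8 plates, 11 held 1 plate whose gap to the nearest other plate exceeded Dixon's 95% critical value; chance gives about 1 in 20 groups. Of density (molecules per kb relative to the median gene region), KO values stood apart in SSRP1 on plate 2 (0.214, others 1.25 to 2.17), NELFA on plate 7 (1.33, others 0.417 to 0.824), NELFCD on plate 5 (2.39, others 0.417 to 1.29) and AFF4 on plate 8 (0.331, others 0.818 to 1.18). WT values stood apart in SUPT5H on plate 1 (1.22, others 0.269 to 0.714), CDK9 on plate 1 (1.41, others 0.185 to 0.760), CDK12 on plate 8 (1.48, others 0.589 to 0.943), CCNT2 on plate 4 (2.29, others 0.692 to 1.44) and SETD2 on plate 8 (0.342, others 0.609 to 0.825). Of timing, both genotypes together, SUPT6H on plate 7 (0.458, others 0.147 to 0.240) and ELL2 on plate 8 (0.383, others 0.110 to 0.233) were later than on the other plates.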

How the results depend on the processing

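Of the values that answer a comparison, 145 stayed and 24 moved over the settings tried, and of the values of single members 585 stayed, 16 changed sign, 20 lost and 2 gained a call, and 32 moved; causes were not tested. Members called earlier in KO numbered 3 with windows of 200 kb, 0 with equal weight per cell, without centring and at 50 molecules per library (where none could be tested), and 0 to 2 with a plate left out. For the step between KO and WT, 1 member was higher with a cell minimum of 300 and 1 with the replicate block; with flanks of 500 kb there were 7 higher and 7 lower, and with a plate left out 1 to 2 higher and 1 to 3 lower. The replicate block changed no other call of a member than those of NELFCD and SSRP1 in the step. For the level of the step, 14 were positive and 9 negative with flanks of 500 kb, where 62.2% of all gene regions passed. The members' timing relative to all gene regions was -0.0587 at a cell minimum of 5000, and their median density in KO 0.920. With windows of 200 kb the sign turned for molecules in POLR2E (0.0720) and ERCC8 (-0.123), for timing in XRN2 (-0.00890) and for the flank ratio in POLR2E (0.0302) and LEO1 (0.119). Molecules turned with equal weight per cell in PAF1 (-0.241) and UVSSA (-0.0245), and in UVSSA with limma's trend on log2 CPM (-0.0349); UVSSA's flank ratio turned with flanks of 500 kb (-0.0302). With a plate left out, molecules ran from -0.145 to 0.126 in UVSSA and from -0.00473 to 0.204 in ERCC8, timing from -0.00775 to 0.0565 in ERCC6, and the flank ratio from -0.123 to 0.219 in UVSSA and from -0.622 to 0.0615 in ELOF1. Over all gene regions, molecules gave 39 higher in KO with the replicate block, 53 higher and 665 lower with windows of 200 kb, 78 lower scaled by the median ratio, and 1 higher and 7 lower with equal weight per cell, against 18 and 159. Timing gave 138 later with equal weight per cell, and the step 2694 higher and 2614 lower with flanks of 500 kb. Regions with 88 to 1371 molecules limit what can be seen.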
